A study of Mus musculus with 8 samples.

Results

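The 6 mouse Iroquois homeobox genes, Irx1 to Irx6, were followed through 8 lists of accessible chromatin from SN4741 cells. They were taken by name, as 6 of the 21884 protein-coding genes with a single locus in the annotation. Each of their 2 gene clusters was read together with 100 kb on either side: Irx1, Irx2 and Irx4 on chromosome 13 (the IrxA window, chr13:71857921-73369608, 1.51 Mb) and Irx3, Irx5 and Irx6 on chromosome 8 (the IrxB window, chr8:91698525-92780956, 1.08 Mb; mm10, GENCODE M21). When the peaks of the 8 libraries were merged, 69 of the genome's 98066 merged regions lay in these windows, 26 in IrxA and 43 in IrxB. Irx1 (ENSMUSG00000060969.9) spans chr13:71957921-71963723 on the minus strand, Irx2 (ENSMUSG00000001504.10) chr13:72628820-72634198 and Irx4 (ENSMUSG00000021604.15) chr13:73260479-73269608 on the plus strand. Irx3 (ENSMUSG00000031734.13) spans chr8:91798525-91802067 on the minus strand, Irx5 (ENSMUSG00000031737.11) chr8:92357625-92376286 and Irx6 (ENSMUSG00000031738.14) chr8:92674288-92680956 on the plus strand. Of the regions, 60 were called in at least 2 libraries and 38 in all 8, against 84777 and 44861 in the genome.

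SN4741 is a clonal mouse line, labelled as neural precursor cells, that was derived from the substantia nigra of transgenic embryos. Its transgene puts a temperature-sensitive SV40 T antigen behind the tyrosine hydroxylase promoter, so both groups carry it although the genotype label reads WT. The study described the line as polyploid and chromosomally unstable, and its karyotypes of undifferentiated cells found most of the chromosomes triploid. The copy number of these windows in the libraries was not measured. The assay was ATAC-seq, in which a transposase cuts open DNA and fragments pile up where chromatin is accessible. There were 4 libraries of cells grown at 37 °C in 10% serum and 4 of cells held at 39 °C in 0.5% serum for 48 h, so temperature and serum cannot be told apart. Each library came from 50000 cells.

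Iroquois genes encode homeodomain transcription factors of the TALE class, named for extra residues in a loop of the homeodomain. In vertebrates they act early in the neural plate and later divide the neural tube into progenitor domains, with Irx3 held out of the most ventral domains by Sonic hedgehog signalling. Irx1 and Irx2 are also expressed in midbrain and hindbrain, Irx4 marks ventricular heart muscle, Irx5 shapes the heart's repolarisation gradient and cone bipolar cells of the retina, and Irx6 acts in retinal bipolar cells. The genes of a cluster are far apart, and the long stretches between them hold enhancers that neighbouring members can share.

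The sequences below are those on which the results turn, from mm10 and printed 5′ to 3′. The first 2 are the 250 bases ahead of the RefSeq start sites of Irx3, which had a promoter peak in every library, and Irx4, which had one in no library (GRCm38.p6, each on its gene's strand, chr8:91801655-91801904 and chr13:73260247-73260496). The RefSeq start site of Irx3 lies downstream of the main GENCODE M21 start (chr8:91802067), from which distances are given. Its printed bases therefore lie inside the GENCODE gene. Capitals mark CpG dinucleotides.
Irx3 promoter: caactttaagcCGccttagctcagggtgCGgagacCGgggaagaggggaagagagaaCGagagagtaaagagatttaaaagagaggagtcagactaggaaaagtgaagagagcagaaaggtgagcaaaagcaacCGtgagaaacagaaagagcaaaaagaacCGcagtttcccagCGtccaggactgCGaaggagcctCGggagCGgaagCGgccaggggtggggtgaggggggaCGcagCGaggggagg
Irx4 promoter: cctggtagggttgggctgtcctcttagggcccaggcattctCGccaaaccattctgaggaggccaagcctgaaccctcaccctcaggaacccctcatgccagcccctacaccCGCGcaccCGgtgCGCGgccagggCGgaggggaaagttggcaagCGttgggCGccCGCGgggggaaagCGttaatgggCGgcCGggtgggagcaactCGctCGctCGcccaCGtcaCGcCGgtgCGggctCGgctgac
The other 6 lie between Irx3 and Irx5, on the plus strand, and are the 201 bases centred on the median summit of regions that stood out in the comparison of temperatures. Each is named by the distance of that summit from the Irx3 start site. Capitals mark matches, on either strand, to short motifs: ACANNTGT for Iroquois factors, TGANTCA for AP-1, GGAATG for TEAD, TGTGGT for RUNX, TGGGTGGTC for GLI, CTTTGAT for TCF/LEF, ACAATGG for SOX, TAATTA for other homeodomains, and the p53 decamer and CTCF core. None of these matches overlaps another here.
+100 kb (chr8:91901967-91902167): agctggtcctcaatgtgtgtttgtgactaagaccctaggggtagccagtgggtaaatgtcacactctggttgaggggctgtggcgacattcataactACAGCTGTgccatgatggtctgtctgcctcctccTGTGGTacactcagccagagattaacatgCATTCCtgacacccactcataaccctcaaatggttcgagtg
+124 kb (chr8:91926199-91926399): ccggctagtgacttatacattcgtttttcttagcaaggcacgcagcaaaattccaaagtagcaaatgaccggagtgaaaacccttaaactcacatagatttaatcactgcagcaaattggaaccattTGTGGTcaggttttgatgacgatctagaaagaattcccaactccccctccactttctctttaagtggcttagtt
+207 kb (chr8:92009131-92009331): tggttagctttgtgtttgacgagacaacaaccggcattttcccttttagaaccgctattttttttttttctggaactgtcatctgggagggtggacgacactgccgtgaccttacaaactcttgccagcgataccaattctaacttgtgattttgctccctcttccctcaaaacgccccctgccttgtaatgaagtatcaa
+327 kb (chr8:92129305-92129505): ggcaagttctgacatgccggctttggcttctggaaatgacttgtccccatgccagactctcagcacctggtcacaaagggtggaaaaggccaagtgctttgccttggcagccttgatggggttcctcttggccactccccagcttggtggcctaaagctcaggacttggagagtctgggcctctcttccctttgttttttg
+456 kb (chr8:92258453-92258653): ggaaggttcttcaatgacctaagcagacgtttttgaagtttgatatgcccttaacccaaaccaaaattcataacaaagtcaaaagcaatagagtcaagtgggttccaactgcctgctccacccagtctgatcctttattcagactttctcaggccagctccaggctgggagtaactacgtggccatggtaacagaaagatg
+499 kb (chr8:92300595-92300795): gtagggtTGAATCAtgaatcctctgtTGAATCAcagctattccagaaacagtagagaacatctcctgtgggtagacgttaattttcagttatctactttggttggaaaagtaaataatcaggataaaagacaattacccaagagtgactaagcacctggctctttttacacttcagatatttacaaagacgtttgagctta

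The files give peaks and not counts, so each peak was placed by the percentile of its −log10 q within its own library's list, where 100 is the strongest. Lists held 74026 to 92013 peaks at 37 °C and 54845 to 68410 at 39 °C. The caller kept 49.8 M, 64.2 M, 158 M and 169 M fragments (M, mega) in the 37 °C libraries and 52.7 to 71.2 M in the 39 °C libraries. The 37 °C lists were the longer ones, also that of the 37 °C library with 49.8 M fragments, the fewest of all 8. The percentile of a region shared by all 8 lists fell at 39 °C by a median of 6.84 points over the genome. Its width fell by a median of 0.24 on the log2 scale. Changes are therefore also given as rank among the 44861 regions called in all 8 libraries (or among the 13108 genes with a promoter peak in all 8), a scale added after the data were seen, on which the median region moved by -0.15 points. With limma and Benjamini-Hochberg adjustment, 2.32% of the regions past an adjusted p of 0.05 were higher at 39 °C by percentile, 47.6% by rank and 63.7% after each library was set to an equal median. For promoters the same shares were 0.946%, 52.8% and 54.4%. The replicate numbers are not tied to separate cultures in the labels, so p-values measure the spread between libraries only.

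Of the 6 genes, 4 had a promoter peak and 2 had none called. A peak lay within 1 kb of a start site of Irx1, Irx2, Irx3 and Irx5 in all 8 libraries, and of Irx4 and Irx6 in 0 of 8, also within 5 kb. Over all coding genes, 59.9% had a promoter peak in all 8 libraries and 31.35% in none. The nearest region called in at least 2 libraries was 67.3 kb from the Irx4 start site and 47.1 kb from that of Irx6. Both genes lay inside long stretches with no region called in 2 libraries, 307 kb around Irx4 (chr13:73020960-73327767) and 232 kb around Irx6 (chr8:92489676-92721395). A further such stretch of 321 kb lay between Irx2 and Irx4 (chr13:72656807-72978093).

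The promoters without a peak were not poor in CpG. Within 1 kb of the start site, Irx4 held 117 CpG dinucleotides at an observed to expected ratio of 0.627 and Irx6 held 106 at 0.556. The medians were 16 CpG and 0.172 over the 6860 coding genes with no promoter peak, and 87 CpG and 0.614 over the 13108 with a peak in all 8 libraries. The 4 Iroquois promoters with a peak held 137 to 174 CpG at ratios of 0.726 to 0.784. All 6 were thus above the genome's median ratio of 0.474, with the 2 genes without a peak lowest among them.

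The Irx5 promoter, shared with the divergent noncoding gene Crnde, was the strongest and broadest of the family. Its percentile was 99.3, 99.5, 99.3 and 99.5 in the 37 °C libraries and 99.6, 99.7, 99.7 and 99.7 in the 39 °C libraries. Every 39 °C library was above every 37 °C library, within a range of less than 1 point. The difference was 0.29 points (SE 0.11, limma adjusted p = 0.0371), and among promoters its rank rose from 95.8 ± 0.77 to 98.4 ± 0.35 (SD, n = 4; limma adjusted p = 0.00710). By percentile 0.572% of the 13108 genes were higher at 39 °C and 59.9% lower, and by rank 10.0% were higher and 8.96% lower. The percentile call was lost when any one of the 37 °C libraries or 39 °C replicate 2 or 3 was left out (limma adjusted p from 0.0608 to 0.102), and on the log2 fold enrichment scale the difference of 0.22 did not pass (1.00). With fragment depth as a covariate it did not pass either (0.27 points, 0.0846). The peak covered 7368 ± 90.8 bp at 37 °C and 7356 ± 117 bp at 39 °C. In all 8 libraries its summit lay at -1502 bp from the Irx5 start site (negative is upstream) and 3 bp from that of Crnde. The fold enrichment was thus read beside the Crnde start site, and accessibility of the peak cannot be assigned to one gene of the pair.

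Irx3 and Irx2 were close behind and did not pass the test by percentile, a result that depended on the scale. The Irx3 promoter, which it shares with its antisense gene Irx3os, was at 99.1, 98.2, 97.4 and 98.6 at 37 °C and at 98.6, 99.1, 98.3 and 98.5 at 39 °C. The groups overlapped, and the difference of 0.29 points had an adjusted p of 0.439 (limma). The Irx2 promoter, shared with Gm20554, was at 98.7 to 99.1 at 37 °C and 98.1 to 98.7 at 39 °C (difference -0.37, limma adjusted p = 0.0781). By rank among promoters neither passed (Irx3 3.90 points, Irx2 -0.086 points, limma adjusted p = 0.157 and 0.953). Setting libraries to equal medians adds the same amount to every promoter, and with it both stood higher at 39 °C (Irx3 2.97 points, Irx2 2.30 points, limma adjusted p = 0.00219 and 0.00478), a direction that this shift fixes for genes so near the top of the lists. Irx3 also passed with the depth covariate (0.81 points, 0.0236). Irx2, Irx3 and Irx5 stood in the top 3% of every list, and the percentiles of Irx2 and Irx3 overlapped at each temperature.

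Irx1 was much weaker. Its promoter peak was at 64.7, 61.3, 55.9 and 60.8 at 37 °C and 56.0, 54.1, 50.1 and 40.3 at 39 °C, with the lowest 37 °C library just under the highest 39 °C library. The fall of 10.5 points passed the test (SE 3.65, limma adjusted p = 0.0273), but the direction turned on the other scale: among promoters Irx1 was at rank 6.19 ± 1.13 at 37 °C and 7.68 ± 1.01 at 39 °C (limma adjusted p = 0.157). The percentile call was also lost without 37 °C replicate 1, 2 or 4 (limma adjusted p from 0.0589 to 0.0779). Its fold enrichment over background was 9.49 ± 1.09 and 9.01 ± 2.3, against 117 to 152 for the group means of Irx2 and Irx5. No Iroquois promoter changed in width, where 0.0610% of genes were wider and 9.70% narrower at 39 °C (limma adjusted p from 0.262 to 0.980). Irx1 measured 1689 ± 156 bp at 37 °C and 1478 ± 223 bp at 39 °C, and Irx2 3174 ± 159 and 2917 ± 198 bp. Irx3 measured 3840 to 4088 bp in 3 of the 37 °C libraries and 6004 bp in replicate 1, and 3622 to 4039 bp in 3 of the 39 °C libraries and 5953 bp in replicate 1.

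**Figure D1:**
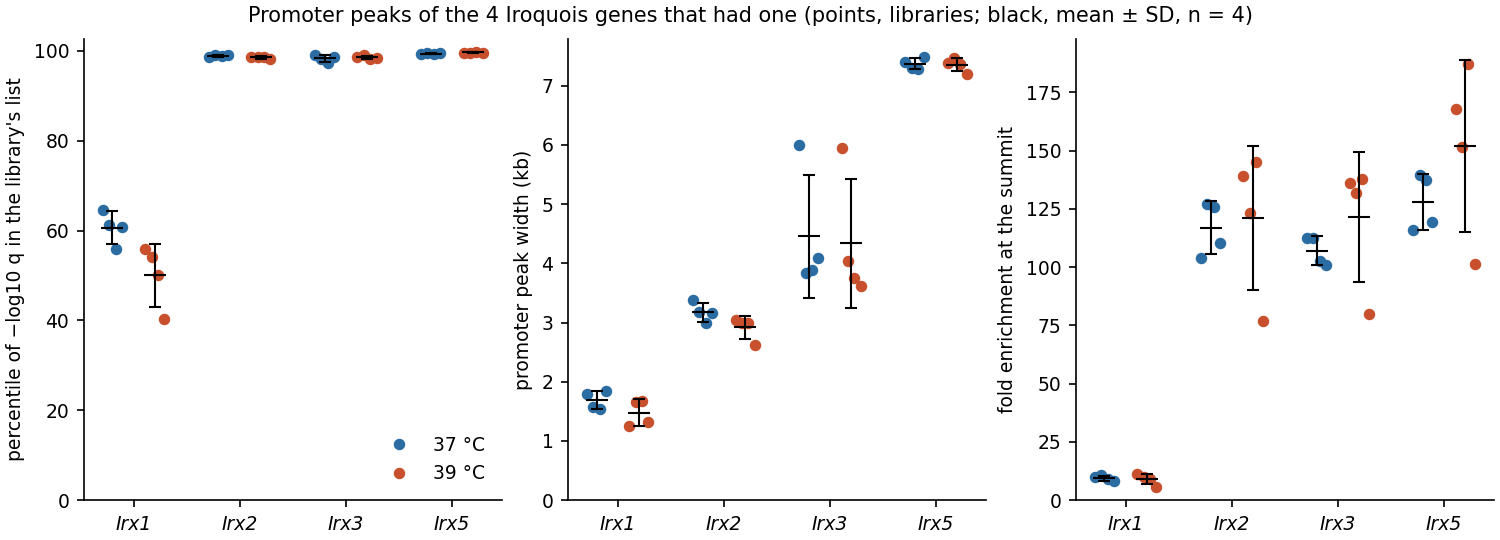
Percentile of −log10 q, peak width in kb and fold enrichment at the summit of the promoter peaks of Irx1, Irx2, Irx3 and Irx5 in each library (points), with mean ± SD (black, n = 4). Irx2, Irx3 and Irx5 sit near the top of every list, Irx1 sits between 40.3 and 64.7, and 39 °C replicate 4 has the lowest fold enrichment of its group for all 4 genes.

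Between Irx3 and Irx5 the chromatin held most of the regions of the IrxB window, and most of those called in all 8 libraries ranked higher at 39 °C. This interval of 556 kb carried 33 of the window's 43 regions and 19 of its 22 regions called in all 8 libraries, and 14 of the 19 rose by rank and 1 fell. In the whole IrxB window 7 of 22 regions rose and 3 fell by percentile (limma, adjusted p under 0.05), where 1.48% of all regions rose and 62.2% fell. By rank among the shared regions 15 of the 22 rose and 1 fell, where 20.0% of all regions rose and 22.1% fell. With each library set to an equal median 17 rose and 1 fell, where 41.1% of all regions rose and 23.5% fell. By log2 fold enrichment 8 rose and 1 fell, where 3.93% of all regions rose and 10.9% fell. The median difference over the 22 was 0.29 points by percentile and 9.92 points by rank, against -6.84 and -0.15 points over all regions tested. The regions that rose by rank ran from +17.9 kb to +687 kb, the last of them beyond Irx5.

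**Figure D2:**
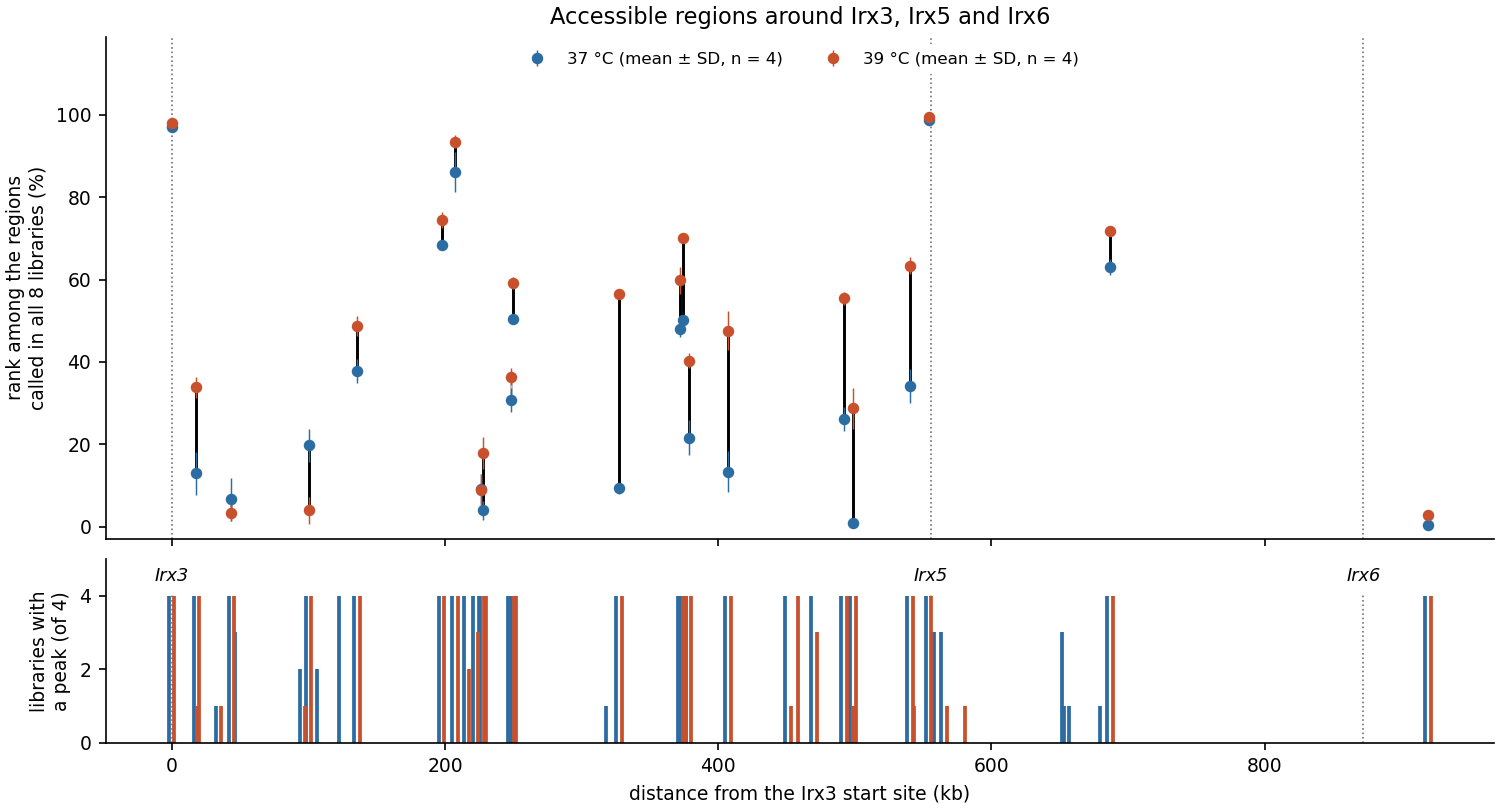
Upper panel: rank of each region of the IrxB window among the regions called in all 8 libraries, at 37 °C and 39 °C (mean ± SD, n = 4), against the distance of its summit from the Irx3 start site in kb. Black connecting lines mark a limma adjusted p under 0.05 and grey lines the rest. Lower panel: how many of the 4 libraries of each temperature had a peak. Dotted lines are the start sites of Irx3, Irx5 and Irx6; most black lines run upward to 39 °C, and Irx6 stands in an empty stretch.

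The region 327 kb from Irx3, in intergenic DNA 228 kb short of Irx5 (chr8:92128511-92130410), had the greatest rise in rank of the window. Its percentile was 46.8, 36.5, 34.8 and 51.8 at 37 °C and 69.7, 69.3, 70.2 and 62.1 at 39 °C, with no overlap. The rise of 25.4 points (SE 4.33, limma adjusted p = 0.000144) went with a rise in rank from 9.33 ± 1.34 to 56.4 ± 0.475 (limma adjusted p = 2.04e-07). Only 4 of the 44861 regions had a greater difference in rank. Fold enrichment was 5.17, 4.88, 4.99 and 5.91 at 37 °C and 21.1, 19.3, 22.1 and 11.9 at 39 °C. The region also widened, from 1064, 765, 767 and 1086 bp to 1688, 1900, 1697 and 1313 bp, a log2 difference of 0.85 (SE 0.17, limma adjusted p = 0.0122). It was the single region of the 22 that was called wider, where 0.399% of all regions were wider and 16.4% narrower. With equal library medians 12 of the 22 were wider and 1 narrower, where 10.7% and 10.4% of all regions were. The 201 bases at +327 kb, printed above, hold 1 CpG and a match to none of the 10 motifs.

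The region at +499 kb (chr8:92299539-92301580), 56.9 kb from the Irx5 start site, had the greatest rise in percentile. It was at 20.4, 10.3, 17.8 and 27.8 at 37 °C and 50.2, 48.6, 44.9 and 42.4 at 39 °C, again with no overlap. The rise was 27.4 points (SE 5.36, limma adjusted p = 0.000399). At 37 °C it was among the weakest shared regions, at rank 0.87 ± 0.73, and at 39 °C it was at 28.8 ± 5.02 (limma adjusted p = 7.35e-06). Fold enrichment went from 2.71 to 3.41 in the 37 °C libraries to 6.19 to 8.97 in the 39 °C libraries. Its width ranged from 320 to 1646 bp at 37 °C and from 981 to 1945 bp at 39 °C, and the groups overlapped. Its 201 bases hold 2 matches to the AP-1 motif, at bases 8 to 14 and 27 to 33. The summits of the 8 libraries spread over 1014 bp there, so the printed bases need not be those of each library's best peak.

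The other 5 regions that rose by percentile were at +207, +374, +407, +492 and +540.2 kb. The region at +207 kb (chr8:92008048-92010773) is the strongest of the interval away from the promoters. It was at 95.7, 90.3, 88.3 and 94.2 at 37 °C and 95.9, 96.7, 94.4 and 94.2 at 39 °C, so that the groups overlapped in percentile. The difference was 3.18 points (limma adjusted p = 0.0131) and 1.90 points, past no threshold, without 37 °C replicate 3, and its fold enrichment was 64.1 ± 10.0 at 37 °C and 87.9 ± 21.5 at 39 °C, a difference that did not pass on the log2 scale (0.43, limma adjusted p = 0.218). The remaining 4 were chosen for description after their values were seen. Their rank rose by 19.9 points at +374 kb, inside the noncoding gene Gm45335, by 34.3 at +407 kb, by 29.3 at +492 kb and by 29.2 at +540.2 kb, inside an intron of Crnde. For the rises in rank limma adjusted p-values ran from 1.07e-06 to 8.14e-06. The percentile calls at +374 and +492 kb were lost when any of 5 libraries was left out, and the 37 °C and 39 °C percentiles of these 4 overlapped.

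A single region of the IrxB window fell both by percentile and by rank. The region 100 kb from Irx3 (chr8:91901461-91902649) was at 59.4, 46.7, 44.3 and 58.8 at 37 °C and 7.8, 15.7, 29.7 and 10.97 at 39 °C, with no overlap. The fall of 36.2 points (SE 5.84, limma adjusted p = 8.99e-05) held by rank, from 19.8 ± 4.04 to 4.00 ± 3.26 (limma adjusted p = 0.000361), and 1303 of the 44861 regions fell further. The region narrowed from 1029, 830, 702 and 1189 bp to 495, 649, 631 and 401 bp (log2 difference -0.78, SE 0.22, limma adjusted p = 0.0407). It was the 1 region of the window called narrower, and that call was lost when any library but 37 °C replicate 3 was left out (limma adjusted p from 0.0504 to 0.125). Its 201 bases carry an Iroquois match that starts at base 98, near the summit, a motif held by 6.14% of all regions in the same window, and 1 match each to RUNX and TEAD. The falls at +43.4 kb, where the groups overlapped, and +226 kb, where they did not, passed by percentile (limma adjusted p = 0.0160 and 0.0211) but not by rank (0.329 and 0.942).

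**Figure D3:**
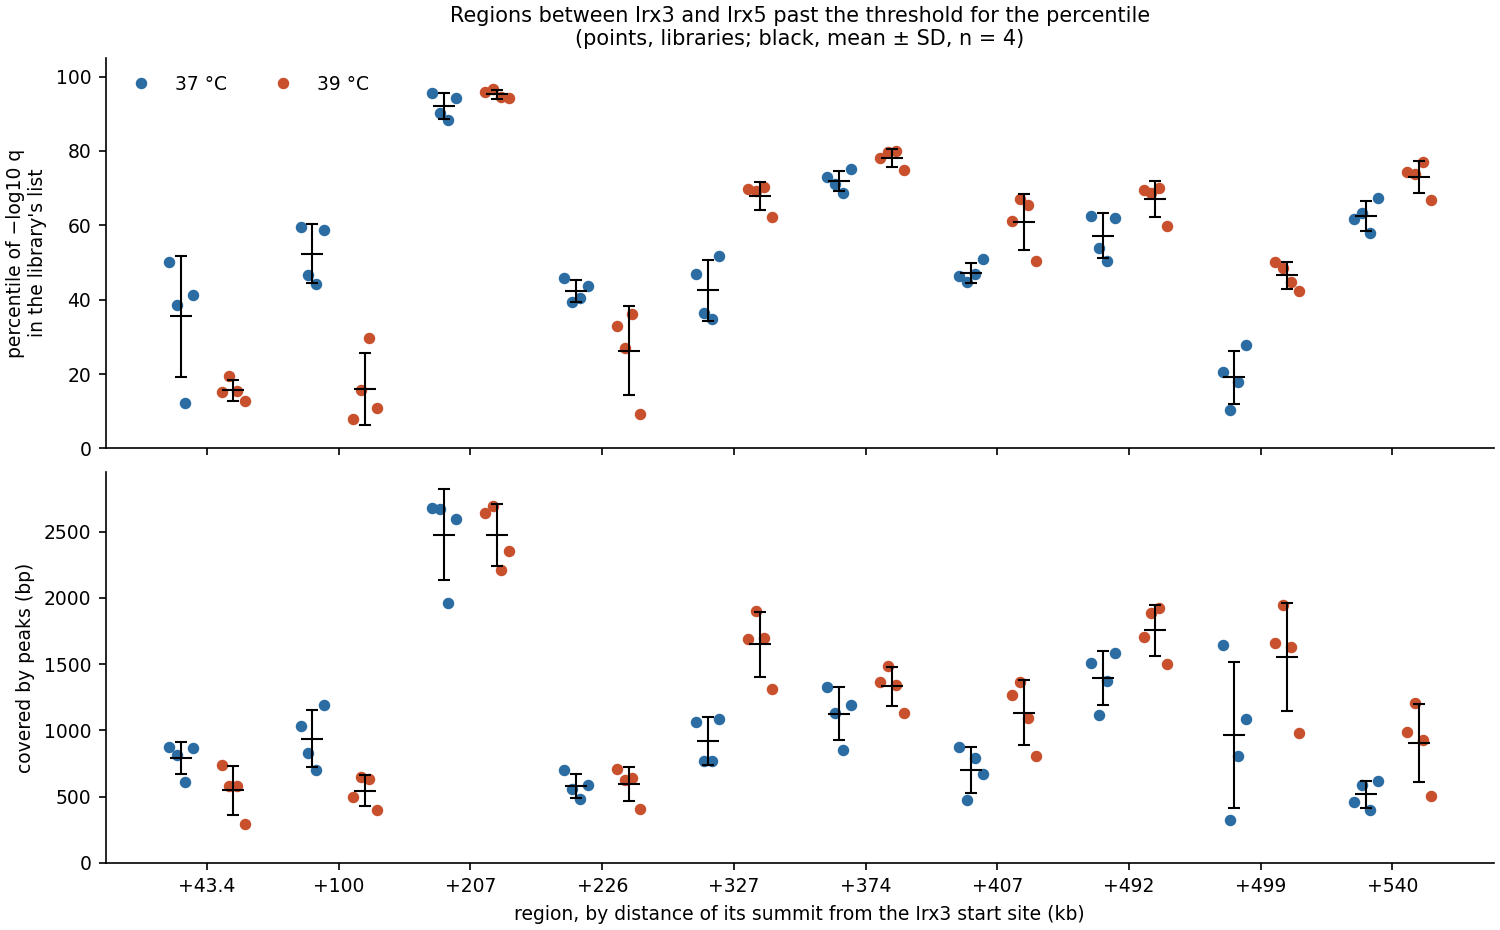
The 10 IrxB regions past a limma adjusted p of 0.05 by percentile, by distance from the Irx3 start site in kb, with the percentile of −log10 q (upper) and the bases covered by peaks (lower) in each library (points) and mean ± SD (black, n = 4). The regions at +327 and +499 kb rise and the regions at +100 and +226 kb fall with no overlap in percentile; the percentile groups at +207, +374, +407, +492 and +540.2 kb overlap.

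The interval was divided at its midpoint after these values were seen, so the counts on its sides are a description and the difference between them has no test. Over all regions 1.48% rose and 62.2% fell by percentile, and 20.0% rose and 22.1% fell by rank. On the side next to Irx5, 9 regions were called in all 8 libraries. By percentile 6 of the 9 rose and 0 fell, and by rank 8 rose and 0 fell, with medians of 9.84 and 27.9 points. On the side next to Irx3, 10 regions were called in all 8. By percentile 1 rose and 3 fell, and by rank 6 rose and 1 fell, with medians of -2.24 and 6.67 points.

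A single IrxB region was called in all 4 libraries of one temperature and none of the other in each direction. The region at +456 kb (chr8:92257866-92258793), 99.1 kb from Irx5, was absent from the 37 °C lists and at percentiles 36.0, 40.8, 46.6 and 22.1 at 39 °C, with fold enrichments of 3.94 to 8.19. The region at +124 kb (chr8:91926070-91926758) was at 14.3, 13.3, 2.7 and 27.2 at 37 °C and absent at 39 °C, with fold enrichments of 2.39 to 3.11. Both were below the median of every list that held them. Among all regions called in at least 2 libraries, 6.04% were restricted to 37 °C and 0.314% to 39 °C. In 4 against 4 libraries the exact 2-sided Fisher test cannot go below p = 0.0286, and no region of the genome passed after adjustment (smallest adjusted p = 0.4497; 5386 regions had an unadjusted p under 0.05). A region missing from a list may still be open below the caller's threshold. The +124 kb window holds 1 RUNX match and the +456 kb window none of the motifs.

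Over the 35 IrxB regions called in at least 2 libraries, 34.3% held an AP-1 match within 100 bases of the summit, as did 29.0% of all 84777 regions. Of the 25 IrxA regions 40.0% did. The 15 IrxB regions that rose by rank, a set chosen by its values, held AP-1 in 53.3%, RUNX in 13.3% and TEAD in 13.3%, where all regions held RUNX in 24.5% and TEAD in 16.9%. The Iroquois motif itself was in 3 of the 35 IrxB regions and 1 of the 25 IrxA regions, beside 6.14% of all regions. The CTCF core was in 0 of the 60 regions of both windows and in 1.89% of all regions. A match is only a run of letters, and binding was not measured.

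The Irx1, Irx2 and Irx4 window was sparser, and the difference in response between the windows was not tested. It held 1.65 regions per 100 kb, where the genome held 3.11 and the IrxB window 3.23 (regions called in at least 2 libraries). By percentile 0 of its 16 shared regions rose and 7 fell, with a median difference of -7.79 points, near the genome's -6.84, where 1.48% of all regions rose and 62.2% fell. By rank 5 rose and 1 fell, with a median of 1.95 points, where 20.0% of all regions rose and 22.1% fell. The rises at -554 and -276 kb were lost without single libraries, one or both of them in 6 of the 8 fits that left a library out. In width 0 of the 16 passed, where 0.399% of all regions were wider and 16.4% narrower, but with equal library medians 3 were wider and 0 narrower, where 10.7% and 10.4% of all regions were. No IrxA region was restricted to a temperature.

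Away from the start sites, the strongest IrxA region lay 551 kb from Irx2 toward Irx1 (chr13:72076236-72078265), 114 kb from the Irx1 start site. It was at 81.0, 78.5, 76.0 and 83.2 at 37 °C and 76.0, 77.5, 76.5 and 68.4 at 39 °C. The groups overlapped (difference -5.08, limma adjusted p = 0.0561), and in rank it was at 63.9 ± 1.79 and 65.5 ± 2.11. The region 4.65 kb ahead of Irx2 (chr13:72623571-72625306) was at 64.0, 63.9, 59.4 and 68.8 at 37 °C and 55.4, 43.3, 51.9 and 47.3 at 39 °C, with no overlap. Its fall of 14.5 points passed by percentile (limma adjusted p = 0.00399) and its fall of 4.23 points in rank did not (0.342). The region at -557.5 kb from Irx2 (chr13:72070989-72071632) was at 54.2 to 61.5 at 37 °C and at 47.5, 55.8, 52.5 and 19.1 at 39 °C, low in replicate 4. Its fall of 13.9 points (limma adjusted p = 0.0441; 5.69 points without 39 °C replicate 4) turned to a rise of 0.58 points in rank (0.936). The promoter region of Ndufs6, a subunit of mitochondrial complex I beyond Irx4 (chr13:73327768-73329185), fell by 8.01 points (limma adjusted p = 0.00471) and by rank did not pass (-1.85, 0.448). With equal library medians its difference turned to 0.78 points, and with a replicate block the fall did not pass (limma adjusted p = 0.0511).

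A pair of regions between Irx2 and Irx4 had the greatest rises in rank of the window and were singled out after their values were seen. Their ranks went from 7.89 ± 5.30 to 22.9 ± 3.45 at +350 kb from Irx2 (limma adjusted p = 0.00125) and from 8.29 ± 1.62 to 28.8 ± 1.69 at +392 kb (limma adjusted p = 9.94e-06). By percentile neither passed (limma adjusted p = 0.709 and 0.352). The one fall by rank was at -430.2 kb from Irx2, toward Irx1, from 64.2 ± 2.80 to 58.1 ± 1.94 (limma adjusted p = 0.00915), and by percentile that region also fell (-10.8 points, 0.00214).

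**Figure D4:**
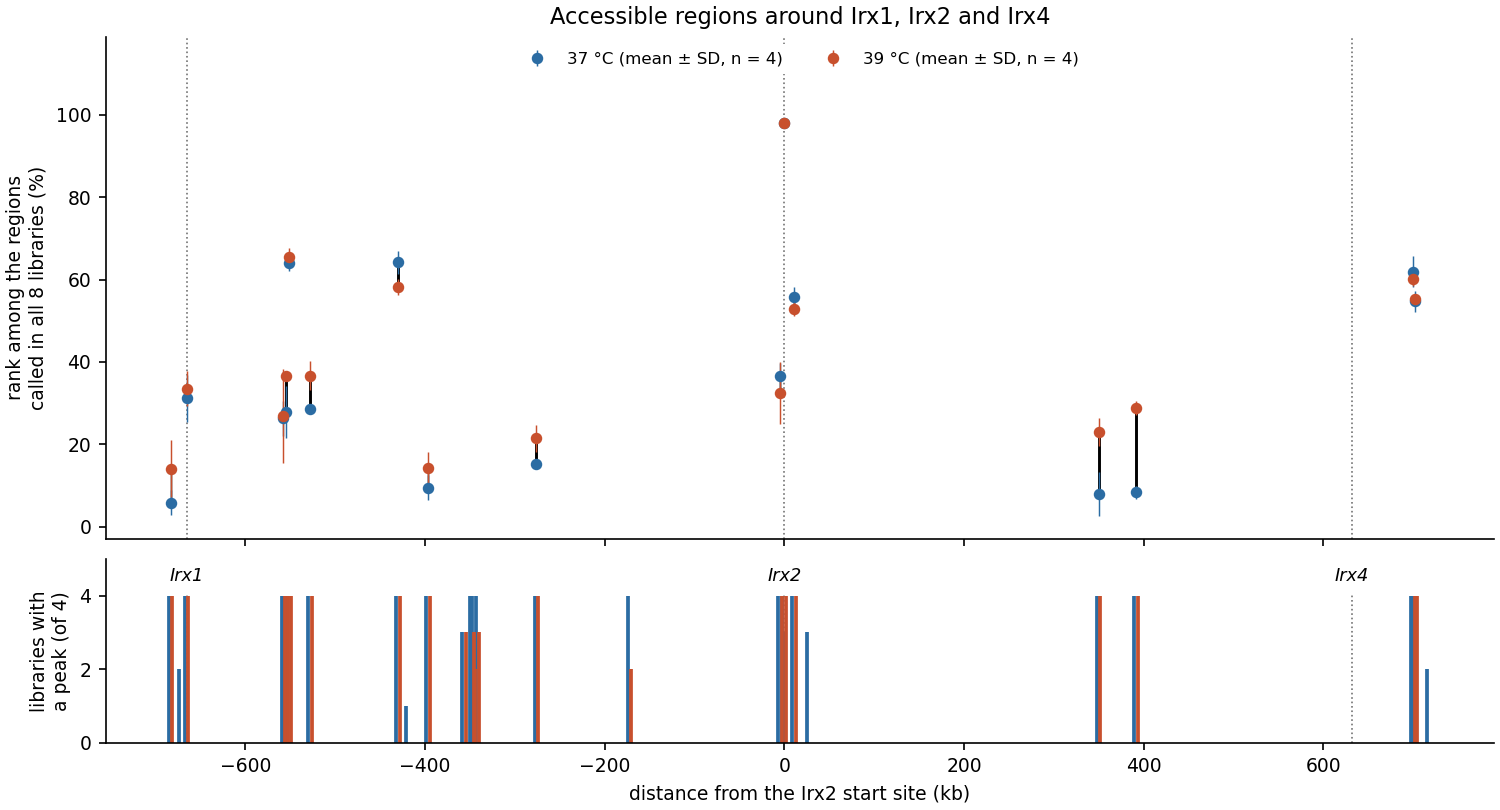
Upper panel: rank of each region of the IrxA window among the regions called in all 8 libraries, at 37 °C and 39 °C (mean ± SD, n = 4), against the distance of its summit from the Irx2 start site in kb, with black lines for a limma adjusted p under 0.05 and grey for the rest. Lower panel: libraries with a peak, of 4. By rank 5 of the 16 regions rise and 1 falls, and no region of all 8 libraries lies within 67.3 kb of Irx4.

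Over whole windows there were fewer peaks at 39 °C, as in the lists as a whole. The IrxB window held 34, 32, 32 and 38 peaks at 37 °C and 29, 29, 30 and 25 at 39 °C, and the IrxA window 25, 23, 20 and 26, and 21, 19, 20 and 17. The bases covered in IrxB were 38.5 ± 6.08 kb at 37 °C and 38.4 ± 5.02 kb at 39 °C. These differences depended on the lists: with equal numbers of peaks IrxB held 2.5 more peaks and 4.03 kb more covered bases at 39 °C, and with any library left out the covered length differed by -2.19 to 2.30 kb. Per 100000 peaks of a list, IrxB held 41.6 ± 1.21 at 37 °C and 44.5 ± 0.76 at 39 °C with no overlap, and IrxA 28.7 ± 1.33 and 30.3 ± 1.38 with overlap. Relative to all bases covered by a list, IrxB held 3.41 ± 0.12 of every 10000 at 37 °C and 4.80 ± 0.037 at 39 °C, and IrxA 2.18 ± 0.065 and 2.57 ± 0.064. Neither share overlapped between temperatures. The median percentile of the IrxB peaks was 45.9 ± 2.02 and 56.5 ± 1.03, and that of the IrxA peaks 53.1 ± 1.18 and 48.5 ± 3.59. Regions called in 2 to 7 libraries had more 37 °C than 39 °C libraries in 8 of 9 cases in IrxA and 11 of 13 in IrxB, where the genome had 80.5%.

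**Figure D5:**
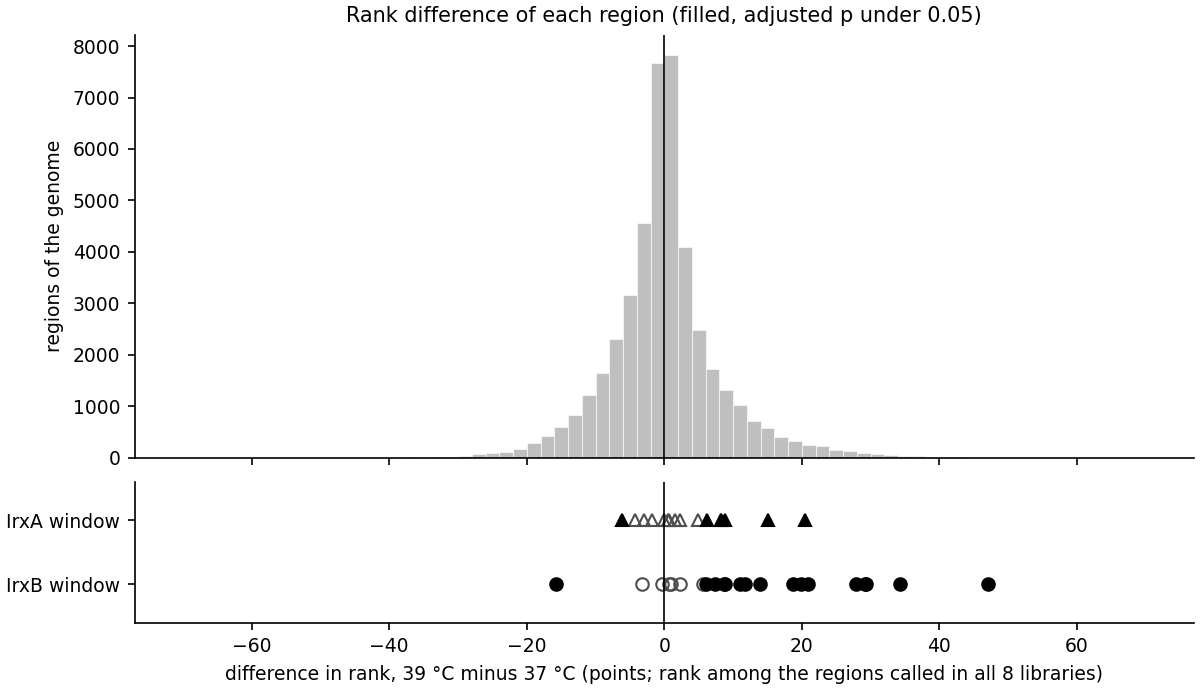
Upper panel: difference in rank between 39 °C and 37 °C for the 44861 regions called in all 8 libraries. Lower panel: the 16 IrxA and 22 IrxB regions on the same axis, filled where the limma adjusted p was under 0.05. The genome is centred near 0, the IrxA regions scatter around it, and the IrxB regions lie mostly to the right, as far as the +327 kb region.

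All 12 other homeobox genes of the TALE class that were examined (Meis, Pbx, Pknox and Tgif genes and Mkx) had a promoter peak in all 8 libraries, as did 59.9% of coding genes. By percentile 0 were higher and 6 lower, beside 0.572% and 59.9% of all promoters tested, and by rank 4 were higher and 1 lower, beside 10.0% and 8.96%. The greatest differences in percentile were -10.1 for Tgif2, a repressor of TGF-β signalling, -8.84 for Meis3, a cofactor of Hox proteins, -7.43 for Pbx2, a Meis partner, and -5.44 for Mkx, a tendon regulator (limma adjusted p = 0.00159, 0.00362, 0.00731 and 0.00997). By rank Tgif2 was still lower (-4.81, 0.0141). Meis3 (-2.93), Pbx2 (0.493) and Mkx (2.24) did not pass (limma adjusted p = 0.0596, 0.611 and 0.112), and the direction of Pbx2 and Mkx turned. The 4 that were higher by rank, named after their values were seen, were Pbx4 (12.7 points, limma adjusted p = 0.0114), Pknox1 (8.18, 0.0365), Tgif1 (7.97, 0.0227) and Meis2 (6.76, 0.0393).

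Of 25 genes of neural tube patterning, in which Iroquois factors take part, 14 had a promoter peak in all 8 libraries, 7 in some and 4 in none. The ventral gene Olig2, whose domain borders that of Irx3, had none, and neither did Dbx1, Dbx2 and Otx2. By percentile 0 of the 14 were higher and 11 lower, and by rank 0 were higher and 1 lower, beside the same shares of all promoters (0.572% and 59.9%, and 10.0% and 8.96%). Wnt3a, a roof plate signal, differed by -27.7 points (limma adjusted p = 0.00403) and by -15.6 points in rank (0.0439). Its 37 °C libraries spread widely in percentile (78.2 ± 15.5, and 50.5 ± 4.58 at 39 °C). Pax6, Six3 and Gbx2, regulators of the early neural plate, differed by -23.2, -22.8 and -21.9 points (limma adjusted p = 0.00547, 0.00666 and 0.0115). By rank their differences were within 1 point and none passed. As for the label of neural precursor cells, 5 of 10 precursor markers and 3 of 6 dopaminergic markers had a promoter peak in all 8 libraries, as did 5 of 6 mesenchymal markers, 0 of 4 markers of blood and liver and 59.9% of all coding genes, so the precursor and dopaminergic counts do not set the label apart from that share.

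The genes whose promoter percentiles were nearest those of each Iroquois gene, by Euclidean distance over the 8 libraries among 13108 genes, were Zfp108 and Smagp for Irx1 (4.77 and 7.24 points), Metrnl and Pwwp2a for Irx2 (0.285 and 0.348), Parp3 and Rrp9 for Irx3 (0.780 for both, which share a promoter) and Znfx1 and Bcl2l11 for Irx5 (0.373 and 0.380). Near the top of the lists small distances are common, since little room is left.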

How the data were processed

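ATAC-seq libraries of SN4741 cells (4 at 37 °C and 4 at 39 °C) were analysed from the peak lists the authors deposited, 1 per library. Per the labels and the study's methods, the authors aligned reads to mm10 with Bowtie2 2.4.1, removed duplicates with Picard 2.26.11 and called peaks with MACS3 3.0.0a7 at a q-value of 0.05, per library and with 1 background for the genome. The deposited lists give −log10 q, fold enrichment (a ratio of pileup to background) and other columns such as peak length in bases. They hold no read counts, so precision rests on the number of libraries, whose depth ran from 49.8 to 169 M kept fragments.

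Here, peaks of all lists were merged where they shared 1 base. A region's value in a library was its best peak's percentile of −log10 q, and its width the bases covered. A gene's promoter peak was the best peak within 1 kb of any GENCODE M21 start site. Percentiles and log2 widths of features called in all 8 libraries were compared with limma 3.58.1 (R 4.3.3, moderated with a trend, Benjamini-Hochberg over all features), and presence with Fisher's exact test. The fit was tested on simulated data with independent noise and no shift of whole libraries. That setting lacks the difference in list length between the temperatures. The members, lists and rules for naming items were chosen with earlier results of these data known. Named were the 6 genes, per window the 3 strongest shared regions, regions restricted to a temperature and the 2 greatest changes in percentile and width past the threshold, the 2 nearest genes by promoter percentile, and up to 4 genes per list. Promoter sequences came from RefSeq (3 of 6 genes matched; GRCm38.p6) and region sequences from the mm10 genome. Alternatives were equal numbers of peaks, a −log10 q of at least 5, equal library medians, rank among shared features, log2 fold enrichment, a depth covariate, only libraries under 100 M fragments, a replicate block, promoters of 5 kb, flanks of 50 kb, 50% cover, and each library left out. Single-cell, RNA and capture data were not analysed here.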

Additional observations from a re-analysis of the deposited data

Results flagged for a closer look

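Of 80 groups of 4 libraries examined, 10 had 1 library further from the rest than Dixon's 95% limit allows, where chance flags about 1 in 20. In 8 of the 10 that library was 39 °C replicate 4, which has the shortest list. It had the lowest Irx2 promoter percentile of its group, 98.1 against 98.6 to 98.7, and the narrowest Irx2 peak, 2622 bp against 2998 to 3049 bp, values that the Irx2 promoter region of the IrxA window repeats. Its Irx3 fold enrichment was 80.1 against 132 to 138. At the strongest distal IrxA region, 551 kb from Irx2, its percentile was 68.4 against 76.0 to 77.5. At +327 kb in IrxB it was 62.1 against 69.3 to 70.2, still above all 37 °C libraries. Its IrxA window held 16.9 kb of peaks against 21.4 to 22.2 kb. The other flags were the Irx3 promoter peak of 37 °C replicate 1, 6004 bp against 3840 to 4088 bp, and the +207 kb region of 37 °C replicate 3, 1963 bp against 2592 to 2675 bp.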

How the results depend on the processing

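The direction of a percentile depends on list length, depth differs between the groups, and no counts were at hand. When each library was left out in turn no rank call in IrxB was lost, and in IrxA those at -554 and -276 kb were lost, one or both in 6 of 8 fits. Where results changed, the cause was not tested.

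Iroquois promoters called higher went from 1 to 3 with equal library medians and to 0 with a replicate block, only libraries under 100 M fragments or log2 fold enrichment. With the depth covariate the count stayed 1, but Irx5 lost its call and Irx3 gained one. Of all promoters tested, 0.572% were called higher in the main fit, 32.3% with equal medians and 1.03% with depth. The share was 0.465% with the block, 0.420% under 100 M and 0.2365% in log2 fold enrichment. Iroquois promoters called lower went from 1 to 0 with the block, the depth covariate, libraries under 100 M, equal numbers of peaks, a −log10 q of at least 5, log2 fold enrichment and rank. Of all promoters 59.9% were called lower in the main fit, 48.1% with the block, 35.0% with depth and 13.6% under 100 M. The share was 12.7% with equal numbers and 39.4% at a −log10 q of at least 5. In log2 fold enrichment it was 3.06% and by rank 8.96%. All genes called went from 7926 to 4721 (depth covariate), 1833 (under 100 M), 2380 (equal numbers), 5175 (−log10 q of at least 5), 432 (log2 fold enrichment) and 2487 (rank). Irx1 turned to 1.17 with equal numbers and 1.49 by rank, and Irx2 to 2.30 with equal medians and 0.0145 in log2 fold enrichment. Widths turned with equal medians to 0.042 (Irx1), 0.12 (Irx2), 0.20 (Irx3) and 0.24 (Irx5), to 0.12 (Irx3) and 0.012 (Irx5) with depth, and to 0.14 (Irx3) and 0.012 (Irx5) under 100 M. Promoter widths called went from 1279 to 533 (block), 646 (depth) and 355 (under 100 M).

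Regions of both windows called higher went from 7 to 21 (equal medians), 3 (replicate block), 15 (equal numbers) and 20 (rank). Of all regions tested, 1.48% were called higher in the main fit and 41.1% with equal medians. The share was 0.856% with the block, 17.0% with equal numbers and 20.0% by rank. Regions of both windows called lower went from 10 to 2 (equal medians), 4 (block), 4 (depth), 2 (under 100 M), 1 (equal numbers), 5 (−log10 q of at least 5), 1 (log2 fold enrichment) and 2 (rank). Of all regions 62.2% were called lower in the main fit, 23.5% with equal medians, 44.2% with the block and 41.3% with depth. The share was 23.8% under 100 M, 24.4% with equal numbers and 43.5% at a −log10 q of at least 5. In log2 fold enrichment it was 10.9% and by rank 22.1%. All regions called went from 28567 to 11702 (under 100 M), 17078 (equal numbers), 6660 (log2 fold enrichment) and 18888 (rank). The IrxA region at -557.5 kb turned to 0.58 by rank, that at 551 kb to 3.71 (equal medians), 0.88 (equal numbers) and 1.54 (rank), and that at +699.6 kb to 0.78 (equal medians). Regions called wider went from 1 to 15 with equal medians, and narrower from 1 to 0 with the block, depth, under 100 M and equal numbers. Of all regions 0.399% were wider in the main fit and 10.7% with equal medians. Narrower were 16.4% in the main fit, 10.9% with the block, 7.60% with depth, 2.665% under 100 M and 13.8% with equal numbers. With equal numbers of peaks +43.4, +100 and +499 kb were no longer called in all 8 libraries and had no value. The count of 0 narrower regions there is thus no lost call. At a −log10 q of at least 5 the +499 kb region had no value either. All region widths called went from 7529 to 4972 (block), 4227 (depth) and 1391 (under 100 M). Restricted to 37 °C were 0 with equal numbers, −log10 q of at least 5 or 50% cover, and to 39 °C 2 with equal numbers and 0 with 50% cover. With equal numbers the difference in peaks was -1.5 in IrxA and 2.5 in IrxB, and that in covered IrxB length 4.03 kb, against 0.415 kb at −log10 q of at least 5 and 5.13 kb under 100 M.

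With each library left out in turn, Iroquois promoters called higher and called lower were each 0 to 1. Irx3 ranged from -0.026 to 0.55 in percentile and -0.20 to 0.11 in log2 width, and Irx5 from -0.010 to 0.0083 in width. Promoter widths called were 481 (without 37 °C replicate 4) to 3430 (without replicate 3), and region widths 3050 to 13052 without the same libraries. Window regions called lower were 5 (without 37 °C replicate 1) to 11, higher 4 (without replicate 3) to 7, narrower 0 to 3, wider 1 to 4 and restricted to 37 °C 1 to 5. The difference in covered IrxB length ran from -2.19 to 2.30 kb. The replicate numbers were shared between groups, and the labels do not say whether same-numbered libraries were paired. Deviations from the group mean correlated at r from -0.479 to 0.256 for same-numbered libraries and from -0.317 to 0.4 for the others. With 4 libraries per group these values cannot show whether the numbers mark pairs.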
